A study of Homo sapiens with 6 samples.

Results

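Cohesin and condensin are ring-shaped complexes that hold and fold chromosomes, and transcript levels of 10 genes that build or regulate them were compared across 6 Affymetrix whole-transcript arrays. The RNA came from U-2 OS, an established line from a human osteosarcoma. The genes were SMC1A, SMC3, RAD21, STAG1, STAG2, NIPBL, WAPL and ESCO2 of cohesin and SMC2 and SMC4 of condensin. They were taken by gene symbol from the array's annotation, and all 10 were found among the 14884 genes tested, each with 1 probe set. On 3 arrays the cells expressed S22A-progerin, in which the serine at position 22 of progerin is replaced by alanine, and on the other 3 they expressed wt-progerin, which lacks that replacement. Progerin is the shortened lamin A of Hutchinson-Gilford progeria, and serine 22 is a residue phosphorylated when the nuclear lamina disassembles in mitosis. Every culture had received a retroviral vector for one or other progerin and 5 µg/ml puromycin for 3 days, and RNA was taken on day 4 after infection. The cells therefore all carried progerin, and cells without it were not analysed here.

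In cohesin, the ATPases SMC1A and SMC3 and the kleisin RAD21 close a ring around DNA, and STAG1 or STAG2 binds to RAD21. NIPBL loads the ring and drives loop formation, WAPL releases it from chromatin, and ESCO2 acetylates SMC3 during S phase so that sister chromatids stay joined until anaphase. Condensin is a related ring whose ATPases, SMC2 and SMC4, are common to condensin I and condensin II, which compact chromosomes for division.

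Values are log2 expression. Each difference is the S22A-progerin mean less the wt-progerin mean, and a gene passed at an adjusted p under 0.05 from limma, a linear model fitted to all genes at once. Array medians over 53617 probe sets lay between 6.05 and 6.09 in S22A-progerin and at 6.04 in each wt-progerin array. Correlations across genes, which are not independent replicates, ran from 0.994 to 0.996 within S22A-progerin, from 0.996 to 0.997 within wt-progerin and from 0.983 to 0.985 between the groups. S22A-progerin replicate 3 gave both of the lowest within-group correlations. LMNA, the gene of lamin A, averaged 8.29 ± 0.024 in S22A-progerin and 8.14 ± 0.036 in wt-progerin (SD, n = 3 each). All its S22A-progerin values lay above all its wt-progerin values (difference 0.15, 95% interval 0.026 to 0.27), but it did not pass (limma adjusted p = 0.0796). Whether its probe set reads the cells' own LMNA, progerin from the vector or both was not tested. LMNA therefore gives no measure of progerin, and it does not test the S22A change. Among mesenchymal and osteoblast-lineage markers FN1, VIM and RUNX2 were read above the array medians, while TWIST1 (4.97 in S22A-progerin, 4.93 in wt-progerin) was below them and SP7 (6.24 and 6.25 in the same order) was close to them. Of the 6 such markers measured 3 fell, RUNX2 (-0.74), FN1 (-0.42) and THY1 (-0.32), at limma adjusted p-values of 9.60e-04, 9.84e-04 and 0.00465, and none rose. The mean level of the 6 was 8.30 to 8.33 in S22A-progerin arrays and 8.53 to 8.59 in wt-progerin arrays, and its part in the results was not tested.

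Transcripts of 7 of the 10 genes fell in S22A-progerin cells and none rose. The 7 were the ring subunits SMC1A, SMC3 and RAD21, the STAG1 subunit, the acetyltransferase gene ESCO2 and both condensin ATPase genes. The loader gene NIPBL, the release factor gene WAPL and STAG2 did not pass. Over all genes tested, 14.6% passed as lower, 10.8% as higher and 25.4% in either direction. The same 7 genes were those whose 3 S22A-progerin values all lay below the 3 wt-progerin values, a pattern seen in 23.6% of all genes, against 18.5% for the opposite order and 42.1% for either. The median difference was -0.39 over the 10 genes, against -0.0037 over all genes. The 10 genes were chosen with earlier results of these data known, so their excess over all genes is not independent support. In bulk RNA, fewer cells that express a gene and less of its RNA per cell cannot be told apart.

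**Figure D1:**
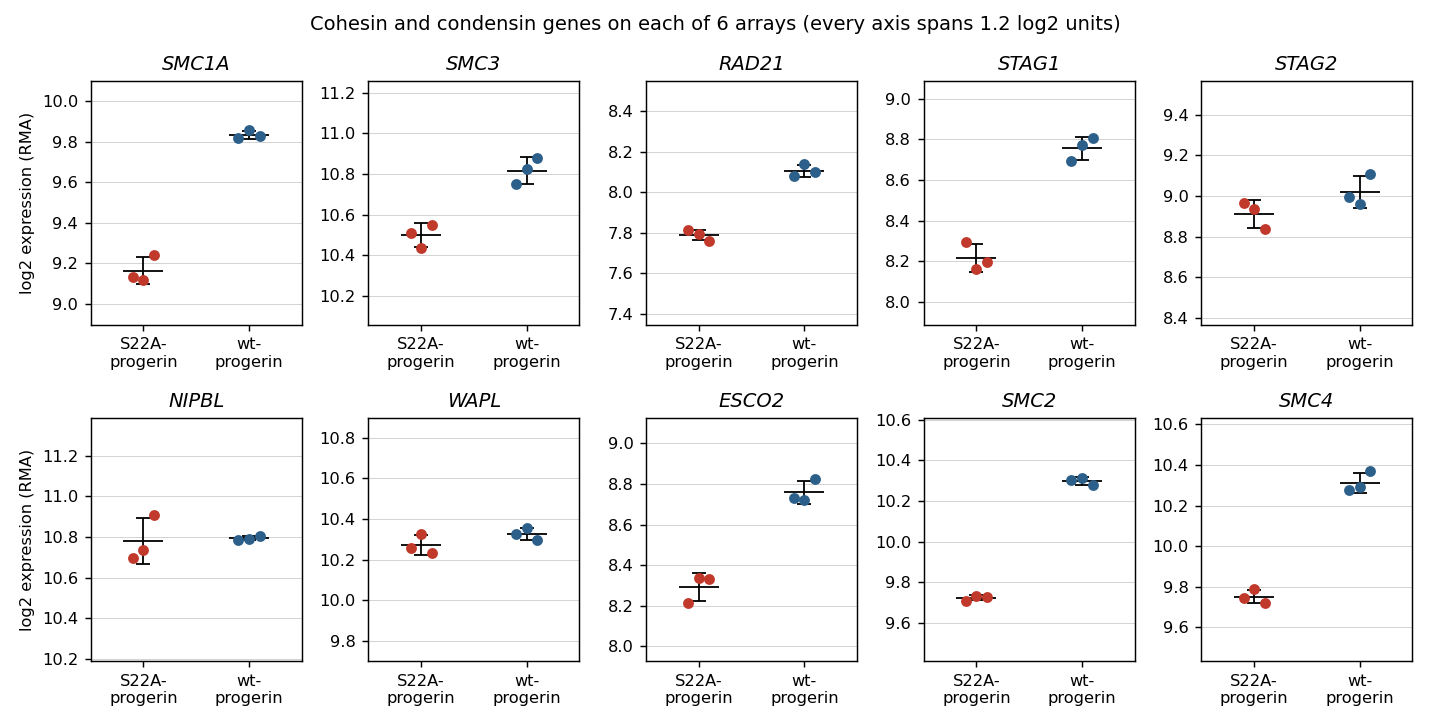
Log2 expression (y axis) of each of the 10 genes on the 3 S22A-progerin arrays (left, red) and the 3 wt-progerin arrays (right, blue), with points for arrays and bars for mean and SD. The groups are apart for 7 genes and overlap for STAG2, NIPBL and WAPL.

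SMC1A, the cohesin ATPase that pairs with SMC3, was read at 9.13, 9.12 and 9.24 in S22A-progerin and at 9.82, 9.86 and 9.83 in wt-progerin. All S22A-progerin arrays lay below all wt-progerin arrays, by several times the spread within either group. The difference was -0.67 (SE 0.056, 95% interval -0.80 to -0.54), 1.59-fold lower, at limma adjusted p = 2.57e-04. It exceeded in size that of 95.7% of all genes tested.

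SMC3, its partner and the target of ESCO acetylation, was read at 10.51, 10.44 and 10.55 in S22A-progerin and at 10.75, 10.82 and 10.88 in wt-progerin. The groups did not overlap, but the highest S22A-progerin and lowest wt-progerin arrays lay closer than for SMC1A. SMC3 was 1.25-fold lower (-0.32, 95% interval -0.46 to -0.18, limma adjusted p = 0.0085). RAD21, the kleisin that closes the ring and is cut by separase at anaphase, was read at 7.81, 7.79 and 7.76 in S22A-progerin and at 8.08, 8.14 and 8.10 in wt-progerin. Its groups were also apart, with little spread in either. The RAD21 difference of -0.32 (95% interval -0.43 to -0.20) was close to that of SMC3 (limma adjusted p = 0.00412).

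The STAG genes encode alternative subunits, so that a cohesin ring holds one or the other. STAG1 was read at 8.29, 8.16 and 8.20 in S22A-progerin and at 8.69, 8.77 and 8.80 in wt-progerin. Every S22A-progerin array was below every wt-progerin array. STAG1 was 1.45-fold lower (-0.54, 95% interval -0.68 to -0.40, limma adjusted p = 9.25e-04). STAG2 was read at 8.96, 8.94 and 8.84 in S22A-progerin and at 8.99, 8.96 and 9.11 in wt-progerin. These values overlapped, since S22A-progerin replicate 1 was above wt-progerin replicate 2. The STAG2 difference was -0.11 (95% interval -0.26 to 0.045, limma adjusted p = 0.281), an interval that still allows a modest fall.

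NIPBL, the loader, was read at 10.70, 10.74 and 10.91 in S22A-progerin and at 10.79, 10.79 and 10.81 in wt-progerin. The wt-progerin arrays were nearly equal, and S22A-progerin replicate 3 was the highest of the 6 while replicates 1 and 2 of that group were the lowest. The difference was -0.013 (95% interval -0.17 to 0.15, limma adjusted p = 0.913), and -0.078 without S22A-progerin replicate 3. WAPL, which opens the ring and takes it off chromatin, was read at 10.26, 10.33 and 10.23 in S22A-progerin and at 10.33, 10.35 and 10.30 in wt-progerin. The groups overlapped, with a difference of -0.054 (95% interval -0.18 to 0.072, limma adjusted p = 0.523).

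ESCO2, the acetyltransferase that acts on SMC3 in S phase, was read at 8.21, 8.34 and 8.33 in S22A-progerin and at 8.73, 8.72 and 8.82 in wt-progerin. The groups were well apart. ESCO2 was 1.38-fold lower (-0.46, 95% interval -0.61 to -0.32, limma adjusted p = 0.00179).

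SMC2, the condensin ATPase, was read at 9.71, 9.73 and 9.73 in S22A-progerin and at 10.30, 10.31 and 10.28 in wt-progerin. Arrays of 1 group were almost identical, so that this gene had the smallest S22A-progerin spread of the 10 (SD 0.012). SMC2 was 1.49-fold lower (-0.58, 95% interval -0.69 to -0.46, limma adjusted p = 2.59e-04). SMC4, its partner, was read at 9.75, 9.79 and 9.72 in S22A-progerin and at 10.28, 10.29 and 10.37 in wt-progerin. Its groups were also wide apart. SMC4 was 1.48-fold lower (-0.56, 95% interval -0.69 to -0.43, limma adjusted p = 4.47e-04).

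**Figure D2:**
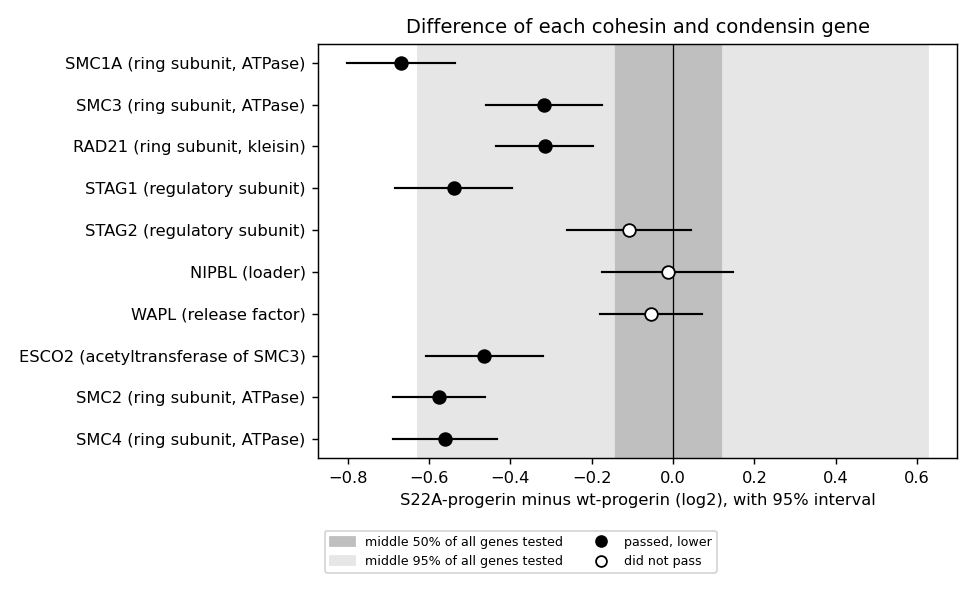
Difference in log2 expression (x axis, S22A-progerin minus wt-progerin) of each gene with its 95% interval, over bands that hold the middle 50% and 95% of the 14884 genes tested. SMC1A at -0.67 lies outside the wider band, the other 6 genes that passed lie between the bands' lower edges, and STAG2, NIPBL and WAPL lie in the inner band.

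Whether 2 genes, partners or not, differed by the same amount was asked with the within-array difference between them. Its own size carries no meaning, because probe sets differ in brightness, and only its shift between groups was compared. SMC1A minus SMC3 was -1.38, -1.32 and -1.31 in S22A-progerin and -0.93, -0.97 and -1.05 in wt-progerin, so that SMC1A was lower relative to SMC3 on every S22A-progerin array. The shift was -0.35. STAG1 minus STAG2 was -0.67, -0.78 and -0.64 in S22A-progerin and -0.30, -0.19 and -0.30 in wt-progerin, a shift of -0.43. Here too the groups were apart, as they were for ESCO2 minus WAPL (shift -0.41) and SMC1A minus NIPBL (shift -0.66). STAG1, ESCO2 and SMC1A fell while STAG2, WAPL and NIPBL did not pass. The separation of these pairs therefore largely restates the results of the single genes. With 3 arrays against 3 the two-sided exact permutation test cannot give less than 0.1, which each of these 4 pairs reached (0.175 adjusted over the 7 pairs compared), so that no pair passed. The remaining pairs overlapped between groups. Their shifts were -0.014 for SMC2 minus SMC4 (exact permutation p = 0.8), 0.0024 for RAD21 minus SMC3 (exact permutation p = 1) and 0.04 for NIPBL minus WAPL (exact permutation p = 0.9), each smaller than the SD within either group except for the last, where the wt-progerin SD was 0.038.

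**Figure D3:**
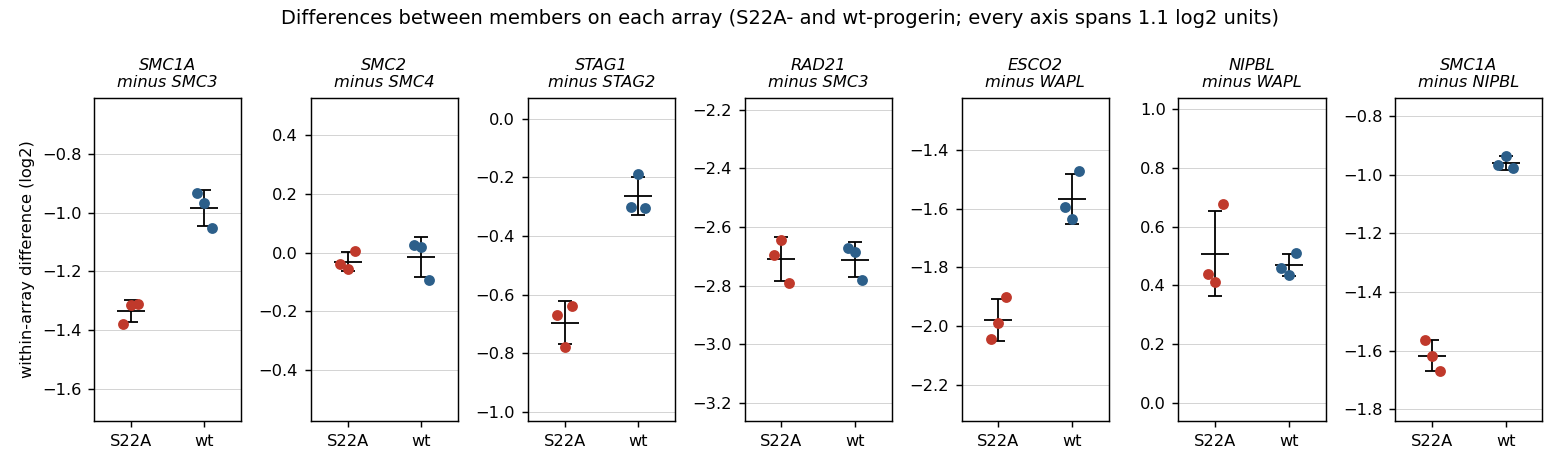
Within-array difference of log2 values (y axis) for 7 pairs of genes on the 3 S22A-progerin arrays (left, red) and the 3 wt-progerin arrays (right, blue), with mean and SD. The groups are apart for SMC1A minus SMC3, STAG1 minus STAG2, ESCO2 minus WAPL and SMC1A minus NIPBL, and overlap for the other 3 pairs.

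The promoters of the members were searched for letters tied to cell cycle transcription. RefSeq windows of GRCh38.p14, from 250 bases before to 50 bases after an annotated start, covered 8 of the 10 genes in 13 windows, RAD21 and ESCO2 not being among them. The cell cycle genes homology region (CHR) was searched as TTTGAA or TTCGAA, the E2F motif as TTTGGCGC, TTTCCCGC, TTTGCCGC or TTTCGCGC, and the CCAAT box as CCAAT, each on both strands. The CHR letters stood in 3 of the 13 windows, 1 each of SMC2, SMC3 and SMC4, and in 16.4% of all 35116 windows. Of the 8 covered genes 5 fell, these 3 and also SMC1A and STAG1, whose windows held no CHR letters. The stretches around the match are shown to let them be compared, with the match in capitals, which reads TTTGAA on the opposite strand, and no E2F match overlaps it. They lie at chr9:104094276-104094328, chr10:110567514-110567579 and chr3:160399545-160399610, all on the plus strand, and the match begins at -3, -151 and -75 relative to the start in the same order.
SMC2: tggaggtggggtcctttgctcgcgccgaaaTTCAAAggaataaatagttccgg
SMC3: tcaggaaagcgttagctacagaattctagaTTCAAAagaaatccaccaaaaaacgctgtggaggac
SMC4: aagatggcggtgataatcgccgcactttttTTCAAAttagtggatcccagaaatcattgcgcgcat

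The E2F letters stood in 4 of the 13 windows, of 4 genes, and in 3.31% of all windows. They were found in SMC1A and STAG1, which fell, and in NIPBL and STAG2, which did not pass. Whether these letters bear on the differences was not tested. The stretches lie at chrX:53422637-53422704 and chr3:136752524-136752591 on the minus strand for SMC1A and STAG1, and at chr5:36876690-36876757 and chrX:123961977-123962044 on the plus strand for NIPBL and STAG2. Capitals again mark the match, which lies on the strand of the gene in each.
SMC1A: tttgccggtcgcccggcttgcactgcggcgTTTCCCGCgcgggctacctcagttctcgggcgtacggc
STAG1: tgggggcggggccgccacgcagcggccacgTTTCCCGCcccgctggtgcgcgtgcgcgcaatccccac
NIPBL: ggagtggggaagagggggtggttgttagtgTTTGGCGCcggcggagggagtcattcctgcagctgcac
STAG2: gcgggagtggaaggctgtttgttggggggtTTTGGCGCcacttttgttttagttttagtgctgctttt
CCAAT stood in 4 of the 13 windows, of STAG1, STAG2 and WAPL, and in 34.6% of all windows. SMC1A and STAG2 have several windows, and only 1 of each held E2F letters. A match describes the letters and does not show a bound site.

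Within SMC4, on its strand, lie the hairpins of MIR15B and MIR16-2, microRNAs that repress cell cycle genes such as cyclins. Both gene entries had probe sets of their own. The mature sequences are shown because the 5p arms share a seed (bases 2 to 8, in capitals), at chr3:160404607-160404628 and chr3:160404754-160404775 on the plus strand of GRCh38.p14, from RefSeq.
hsa-miR-15b-5p: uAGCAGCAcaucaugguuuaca
hsa-miR-16-5p: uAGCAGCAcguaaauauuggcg

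MIR15B was read at 4.66, 4.11 and 4.36 in S22A-progerin and at 5.33, 5.63 and 5.06 in wt-progerin. The groups were apart, though both were dim and more spread than those of SMC4. MIR15B was 1.94-fold lower (-0.96, 95% interval -1.38 to -0.54, limma adjusted p = 0.00773). MIR16-2 was read at 5.21, 5.43 and 4.69 in S22A-progerin and at 5.91, 5.92 and 5.86 in wt-progerin, again apart, with a difference of -0.79 (95% interval -1.19 to -0.38, limma adjusted p = 0.0148). Their intervals overlap that of SMC4, and whether the probe sets read the hairpins or the SMC4 primary transcript was not tested. The related genes MIR15A and MIR16-1 lie on chromosome 13. MIR15A averaged 6.12 ± 0.16 in S22A-progerin and 6.85 ± 0.092 in wt-progerin (SD, n = 3 each) and fell (-0.73, limma adjusted p = 0.00156), while MIR16-1 averaged 6.29 and 6.39 in the same order and did not pass (-0.10, limma adjusted p = 0.541). The difference between them was not tested. The mature miR-16 sequence has copies at both places, so their probe sets may share signal.

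RefSeq lists 81 other genes within 100 kb of the 10 members, and 20 of them, beside 7 of the members, were tested. They were looked at after the members' values were known. Of these neighbours 8 fell, 3 rose and 9 did not pass, with a median of -0.20. Over all genes tested, 14.6% passed as lower and 10.8% as higher. MIR15B and MIR16-2, which lie inside SMC4 and may share its signal, are among the 8. Beside SMC4, IFT80, a gene of transport in cilia, fell (-0.59, 95% interval -0.82 to -0.36, limma adjusted p = 0.0045) and so did TRIM59, a ubiquitin ligase gene (-0.34, limma adjusted p = 0.0194), while KPNA4, an importin alpha, and SCARNA7, a small Cajal body RNA, rose (0.44 and 0.50, limma adjusted p = 0.015 and 0.013). TRIM59 did not pass without S22A-progerin replicate 1 or 2 or without wt-progerin replicate 1 or 2 (adjusted p 0.0569 to 0.0683), and KPNA4 did not pass without wt-progerin replicate 2 (adjusted p = 0.0531).

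NIPBL-DT, the divergent noncoding RNA next to NIPBL, was read at 7.79, 7.76 and 7.79 in S22A-progerin and at 8.19, 8.29 and 8.15 in wt-progerin. Its groups were apart while those of NIPBL overlapped, and it was 1.35-fold lower (-0.43, 95% interval -0.57 to -0.30, limma adjusted p = 0.00179). The 95% interval of NIPBL, -0.17 to 0.15, does not reach that of NIPBL-DT, though the difference between them was not tested. CPLANE1, a cilium gene on the other side of NIPBL, also fell (-0.43, limma adjusted p = 0.00587). RIBC1, the nearest tested gene to SMC1A, had a difference of 0.00058 (95% interval -0.21 to 0.21, limma adjusted p = 0.997). HSD17B10, a mitochondrial dehydrogenase gene a little further off, had a difference of -0.17 and did not pass (limma adjusted p = 0.0568). It passed with arrays centred on their medians (-0.20, adjusted p = 0.0388), without the dimmer genes (adjusted p = 0.0148), with a trended and robust variance prior (adjusted p = 0.0124) and with array weights (adjusted p = 0.0486). At ESCO2, PBK, a mitotic kinase gene whose span overlaps it, fell by 0.63 (limma adjusted p = 5.29e-04), and CCDC25, which also overlaps it, fell by 0.32 (limma adjusted p = 0.0408). CCDC25 passed without S22A-progerin replicate 1 but not when any other array was left out. It also did not pass after a further quantile normalization, with array weights or with the replicate number as a random block. RAD21-AS1, which overlaps the start of RAD21 on the other strand, did not pass (0.032, limma adjusted p = 0.74). DUSP5, a phosphatase of ERK near SMC3, rose by 0.86 (limma adjusted p = 4.90e-04).

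**Figure D4:**
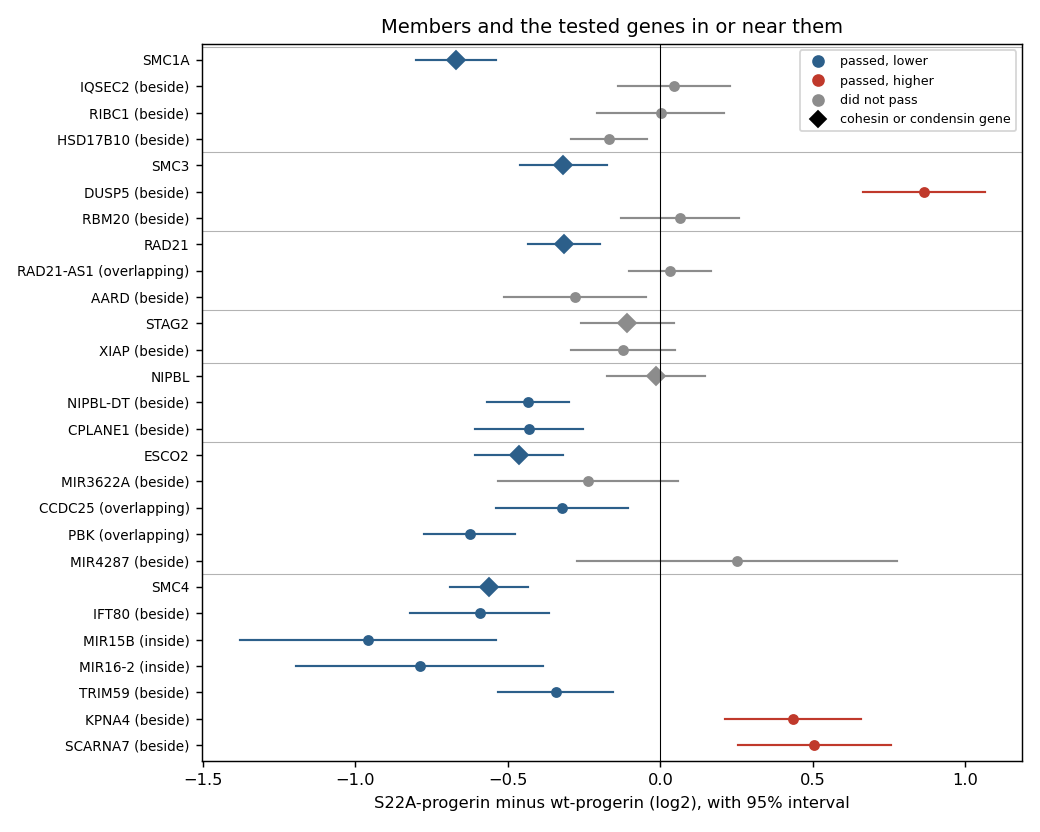
Difference in log2 expression (x axis, S22A-progerin minus wt-progerin, with 95% interval) of 7 members (diamonds) and of the 20 tested genes in or near them (circles), blue where they fell, red where they rose and grey where they did not pass. MIR15B and MIR16-2 lie left of SMC4, and NIPBL-DT lies left of NIPBL.

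Other regulators of the cohesin ring did not all go one way. MAU2, the partner of NIPBL in the loader, averaged 8.42 ± 0.060 in S22A-progerin and 8.34 ± 0.081 in wt-progerin (SD, n = 3 each) and did not pass (limma adjusted p = 0.414). ESCO1, the acetyltransferase that acts on cohesin through interphase, was read at 8.98, 8.89 and 8.99 in S22A-progerin and at 8.67, 8.77 and 8.69 in wt-progerin. It was higher on every S22A-progerin array, opposite to ESCO2. The rise of 0.24 (95% interval 0.11 to 0.38) passed at limma adjusted p = 0.0209, but not without S22A-progerin replicate 1 (adjusted p = 0.0612), without wt-progerin replicate 1 (adjusted p = 0.0788) or without wt-progerin replicate 3 (adjusted p = 0.0767). HDAC8, which removes acetyl groups from SMC3, and CDCA5, the sororin that counters WAPL, fell by 0.21 and 0.23 (limma adjusted p = 0.0277 and 0.0288). HDAC8 passed without S22A-progerin replicate 3 but not when any other array was left out. CDCA5 passed without S22A-progerin replicate 1 but not when any other array was left out. Neither HDAC8 nor CDCA5 passed with the replicate number as a fixed block. Of the 7 measured genes of cohesin loading, release and acetylation, the 3 members NIPBL, WAPL and ESCO2 included, 3 fell and 1 rose.

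The genes that guard and cut cohesin in mitosis all fell, 8 of 8 measured (median -0.58). ESPL1, the separase that cleaves RAD21, was read at 8.36, 8.36 and 8.39 in S22A-progerin and at 9.17, 9.20 and 9.16 in wt-progerin, so that the groups were far apart. It was 1.75-fold lower (-0.81, limma adjusted p = 7.73e-05). PTTG1, the securin that inhibits separase, fell by 0.59. The shugoshins SGO1 and SGO2, which shield centromeric cohesin, fell by 0.63 and 0.68. BUB1 and HASPIN, genes of kinases that mark the centromere, fell by 0.56 and 0.50. AURKB and PLK1, kinases that strip cohesin from chromosome arms, fell by 0.49 and 0.48. All 8 had limma adjusted p-values between 7.73e-05 and 0.00409.

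Factors that couple cohesion to the replication fork fell as well, 5 of 5 measured of 13 listed. WDHD1 (-0.58), TIMELESS (-0.54) and DSCC1 (-0.50), parts of the fork or of the PCNA loader for cohesion, had the largest differences, followed by TIPIN (-0.32), the partner of TIMELESS. PCNA, the sliding clamp that recruits ESCO2, was -0.24 and only just passed (limma adjusted p = 0.0495), and it did not pass when any 1 array was left out. TIPIN did not pass without wt-progerin replicate 1, 2 or 3, or with the fixed block. 

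Cohesin subunits of meiosis belong to the family but act mainly in germ cells. None of the 4 measured passed, at a median of 0.0083. SMC1B averaged 4.36 ± 0.059 in S22A-progerin and 4.63 ± 0.31 in wt-progerin (SD, n = 3 each), with a difference of -0.27 (limma adjusted p = 0.232) that passed without wt-progerin replicate 1 (-0.45, adjusted p = 0.00878). RAD21L1 averaged 4.50 in both groups, STAG3 5.78 and 5.77, and REC8 5.92 and 5.87, S22A-progerin first in each, all below the array medians.

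The SMC5/6 complex, another SMC ring that acts in DNA repair and replication, fell in part. Of 7 measured genes 3 fell and none rose, with a median of -0.19. SMC6 fell by 0.33 (limma adjusted p = 0.0131), whereas its partner SMC5 was -0.067 (limma adjusted p = 0.453). SLF1, which brings the complex to DNA damage, fell by 0.62 (limma adjusted p = 0.0032) and NSMCE4A, its kleisin, by 0.41 (limma adjusted p = 0.0233). SMC6 and NSMCE4A did not pass without wt-progerin replicate 1 or without wt-progerin replicate 3. NSMCE1 (0.045), NSMCE3 (-0.19) and EID3 (0.14) did not pass. The condensin subunits beyond SMC2 and SMC4 were not analysed here.

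Of 9 genes for chromosome axes and loop anchors 6 fell and none rose (median -0.39). KIF4A, a chromosome-bound kinesin that works with condensin, was -0.76, MKI67, the coat of mitotic chromosomes, -0.74, and TOP2A, the topoisomerase of mitotic axes, -0.62, at limma adjusted p-values of 1.69e-04, 2.69e-04 and 3.02e-04. SMCHD1, a noncanonical SMC protein of the inactive X chromosome, fell by 0.48 (limma adjusted p = 8.05e-04). CTCF, the factor at which cohesin loops stop, fell by 0.39, with means of 9.95 ± 0.071 in S22A-progerin and 10.34 ± 0.032 in wt-progerin (SD, n = 3 each, limma adjusted p = 0.00309). TOP2B, the interphase topoisomerase, fell by 0.28 (limma adjusted p = 0.0168), a call not made without S22A-progerin replicate 2, wt-progerin replicate 2 or wt-progerin replicate 3. The TOP2B call was also not made with the replicate number as a fixed block. YY1 (-0.091), ZNF143 (0.15) and AKAP8 (0.10) did not pass.

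**Figure D5:**
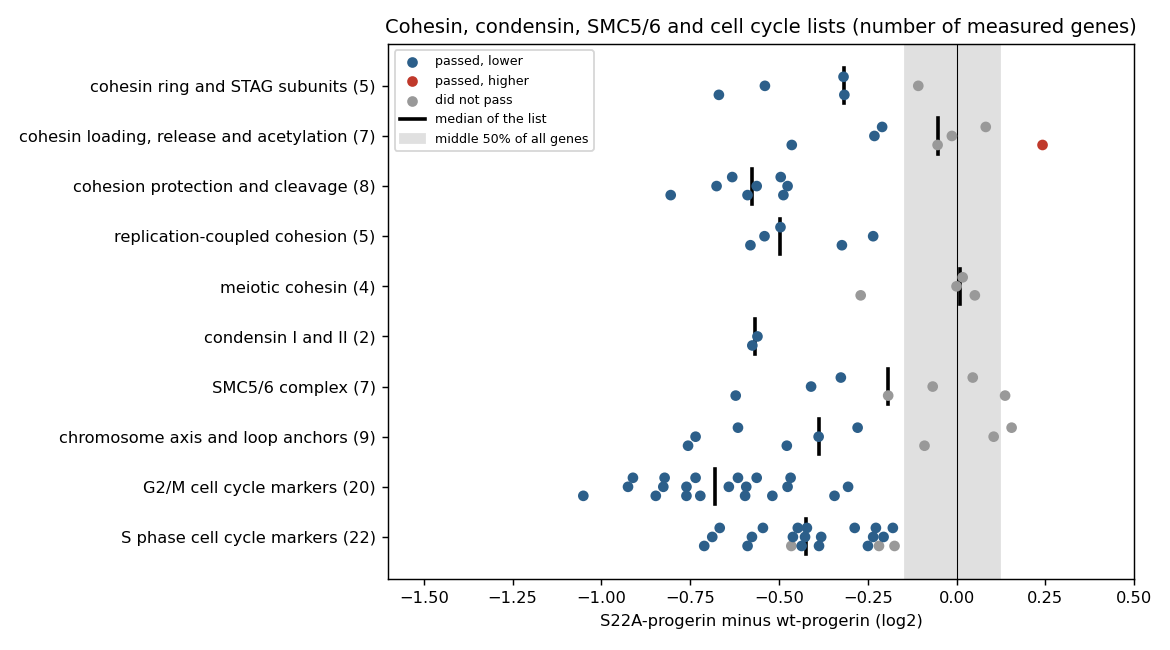
Difference in log2 expression (x axis, S22A-progerin minus wt-progerin) of each measured gene of 10 lists, with the list's median as a bar and the middle 50% of all genes as a grey band. The lists of cohesion protection, replication-coupled cohesion, condensin and G2/M markers hold only falls, and the meiotic cohesin genes lie around 0 except for SMC1B.

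Most markers of the dividing cell cycle fell in S22A-progerin, as did 7 of the 10 members. All 20 measured G2/M markers fell (median -0.68), and their mean level was 9.95 to 10.05 in S22A-progerin arrays and 10.67 to 10.70 in wt-progerin arrays. CDC25C, the phosphatase that activates CDK1, was -1.05 and KIF11, the spindle kinesin, -0.82. Of 22 S phase markers 19 fell and none rose (median -0.42), and their mean level was 9.78 to 9.91 in S22A-progerin arrays and 10.25 to 10.26 in wt-progerin arrays. CDC45, a helicase subunit, was -0.69 and E2F1, a driver of S phase transcription, -0.67. SMC1A, SMC2, SMC4, STAG1 and ESCO2 had differences between the medians of these lists, while SMC3 and RAD21 had smaller ones. The part of cell cycle stage in the falls of the members was not tested. Over the 10 lists of cohesin, condensin, SMC5/6 and cell cycle genes, 74 genes other than the members were measured, of which 58 fell and 1 rose. A few genes, such as TOP2A, PLK1 and PCNA, stand in more than 1 list. Markers of other cell types were also measured, and their levels varied. KRT18 (11.94 in S22A-progerin, 11.42 in wt-progerin) and CD68 (9.80 and 8.32 in the same order) were read well above the array medians. KRT5 (5.31 and 5.65) and LYZ (4.97 and 4.70), again in that order, were below them. Of 4 measured leukocyte markers CD68 rose (1.48) and CD14, LYZ and TYROBP did not pass, though LYZ passed without wt-progerin replicate 1 and TYROBP without S22A-progerin replicate 3. Their mean level was 6.72 to 6.92 in S22A-progerin arrays and 6.28 to 6.39 in wt-progerin arrays. Of 9 epithelial markers KRT18 rose (0.51) and KRT14 fell (-0.32), and KRT14 did not pass without S22A-progerin replicate 1 or 3 or wt-progerin replicate 1 or 2. KRT5 passed without wt-progerin replicate 2 (-0.44, adjusted p = 0.0458) and EPCAM without wt-progerin replicate 3 (-0.39, adjusted p = 0.0368). The mean epithelial level was 6.77 to 6.86 in S22A-progerin arrays and 6.82 to 6.90 in wt-progerin arrays. Their part in the results was not tested.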

How the data were processed

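Per the submitters' processing notes, the deposited log2 values came from RMA and Affymetrix Expression Console, with 1 column per array. RMA corrects background, quantile normalizes arrays and summarises probe sets. The sources used here give no version or settings. No detection call was used, so a low value was not read as absence, and the number of arrays limits the precision. The annotation gave 1 symbol to 16098 of 53617 probe sets and several to 0, and 37519 stayed unnamed. Entrez identifiers matched against a RefSeq table of GRCh38.p14 changed 0 symbols. The brightest probe set stood for a gene (779 genes had several). Cross-hybridisation was not checked. The design text calls the replicates independent, and each p rests on the spread among 3 arrays per group.

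All 14884 genes were fitted with limma 3.58.1 (R 4.3.3, lmFit and eBayes), 2 groups, no covariate, two-sided, with Benjamini-Hochberg adjustment. Related genes came from 13 lists of 144 genes, of which 103 were measured. Named are all members, LMNA, every measured cohesin, condensin and SMC5/6 gene and up to 4 genes of each other list by smallest p. CTCF, TOP2B, YY1, ZNF143, AKAP8, TWIST1, SP7, microRNA genes and neighbours were named after their values were seen. Members and lists were chosen with earlier results of these data known. On simulated arrays of 14884 genes the fit recovered 11 of 50 genes changed by 0.3 on the log2 scale, 37 of 50 at 0.6 and 47 of 50 at 1. The simulation changed only 50 genes at each size and gave 153 calls, against 3777 genes that passed in the data. The adjusted threshold depends on the share of genes changed, so these rates do not give the recovery in these data. Alternatives covered normalization, centring, dim genes, probe set averages, variance priors, array weights, replicate blocks, a threshold of 0.01 and each array left out.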

Additional observations from a re-analysis of the deposited data

How the results depend on the processing

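The 7 falls and 0 rises among the 10 genes were counted under every alternative run, including each array left out. Over all genes, 1226 were lower and 852 higher at an adjusted p under 0.01, and with 1 array left out 1512 to 2047 were lower and 1127 to 1550 higher. Among related genes the 1 rise, ESCO1, became 0 at an adjusted p under 0.01 and with the replicate number as a fixed block, and 0 to 1 with an array left out, while 45 to 54 fell with an array left out. LMNA passed after a further quantile normalization (0.17, adjusted p = 0.0456) and when the dimmer 50% of genes were dropped (adjusted p = 0.0237).

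Differences near 0 changed sign. With the arrays quantile normalized again NIPBL was 0.039, STAG3 -0.020, RIBC1 -0.032 and RAD21 minus SMC3 -0.023. With arrays centred on their medians STAG3 was -0.017, RIBC1 -0.033 and RAD21-AS1 -0.0024. With an array left out NIPBL ran from -0.078 to 0.029, STAG3 from -0.021 to 0.086, RAD21L1 from -0.046 to 0.044, REC8 from -0.015 to 0.14, NSMCE1 from -0.0081 to 0.15, EID3 from -0.060 to 0.30, RIBC1 from -0.079 to 0.056, RAD21-AS1 from -0.0045 to 0.067 and MIR16-1 from -0.17 to 0.012. Likewise RAD21 minus SMC3 ran from -0.032 to 0.042, NIPBL minus WAPL from -0.043 to 0.089 and SMC2 minus SMC4 from -0.054 to 0.0068. None of these passed in any setting, and the cause was not tested.

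Same-numbered arrays did not deviate together from their group means (correlations over genes -0.019, -0.055 and -0.0056 for replicates 1, 2 and 3). In these deviations no S22A-progerin array correlated best with its own number. Such correlations cannot show that the arrays were unpaired, and the main fit used no pairing. With the fixed replicate block 7 members fell, 1705 genes were lower and 1285 higher. No signal over background was used, which limits what the dim microRNA and meiotic genes can show.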
